A study of Mus musculus with 6 samples.

Results

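The genes described here are antiviral interferon-stimulated genes, together with interferon beta and both subunits of its receptor. They were chosen by symbol, 40 in all, without a threshold on the measured values but with earlier results of these data known. The shares of them that were called are therefore descriptions and not a test of the list. Of these, 37 had a probe set annotated to a single gene and were measured, of 19938 genes in all. Isg15 and Oas1g shared their probe set with another gene and no probe set was listed for Ifi44, so these 3 genes have no value here.

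Global gene expression was measured in RAW264.7 cells, an established mouse macrophage-like line, 18 h after transfection with a miR-342-3p mimic (3 arrays) or with a negative control mimic (3 arrays). Both groups received a transfected small RNA, and untransfected cells were not analysed here. By the study's account the replicates come from independent experiments, all with this single line, so the p-values measure the spread between these cultures. The values are log2 intensities that the authors obtained with robust multi-array averaging (RMA). A log2 fold change is the miR-342-3p mean minus the control mean, so that 1 unit is a doubling. Genes were tested with limma across all genes, and a gene is called where its false discovery rate (FDR, Benjamini-Hochberg) is under 0.1. Levels on an array depend on the probes, so that the genes are compared between groups and not with each other.

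Type I interferons are secreted by cells that sense foreign RNA or DNA. They bind the receptor formed by IFNAR1 and IFNAR2, whose kinases JAK1 and TYK2 activate STAT proteins such as STAT2, which joins IRF9 in the complex ISGF3. ISGF3 binds the interferon-stimulated response element (ISRE) in the promoters of genes whose products block the translation, copying, assembly or release of viruses. Macrophages keep many of these genes at a tonic level and raise them after contact with viral or bacterial products.

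The small RNA that set the groups apart corresponds to the mature miRNA below, given as RefSeq lists it on GRCm38.p6 (chr12:108658680-108658702, plus strand), with the seed, bases 2 to 8, in capitals. The mimic's own sequence is not given in the sources that were used.
mmu-miR-342-3p: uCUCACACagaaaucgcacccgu

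Of the 37 measured genes, 12 rose in miR-342-3p-transfected cells (32.4%, against 4.14% of all genes tested), 2 fell (5.41%, against 7.42% of all genes tested) and 23 were not called. The genes that rose were Ifit1, Rsad2, Usp18, Cmpk2, Isg20, Ifit3, Oasl2, Oasl1, Rtp4, Irf7, Xaf1 and Ifnb1, by 1.31- to 2.18-fold. Samhd1 and Herc6 fell. At an FDR under 0.05, 10 genes were still called higher and 1 lower. All 3 miR-342-3p arrays lay above all 3 control arrays for 17 of the 37 genes, against 21.4% of all genes tested, and below them for 3, against 15.5%. The groups overlapped for the other 17. The median log2 fold change was 0.15 over the measured genes and 0.069 over all genes tested. The arrays hold RNA of whole cultures, in which more RNA per cell cannot be told apart from more cells that express a gene.

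**Figure D1:**
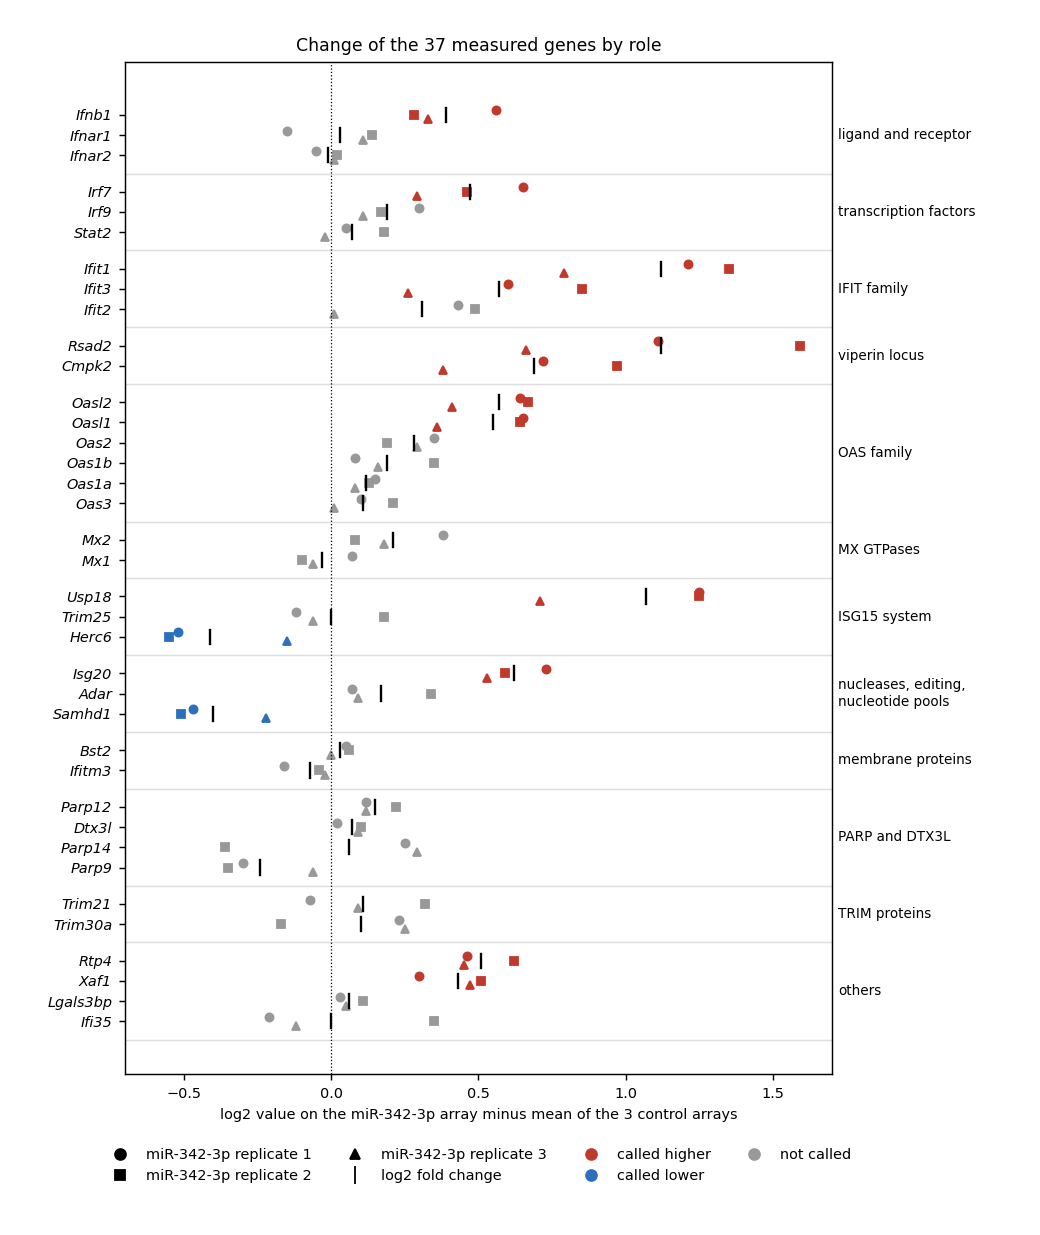
Change of the 37 measured genes, grouped by role. Each symbol is the log2 value on 1 miR-342-3p array minus the mean of the 3 control arrays, the vertical bar is the log2 fold change, and the colour gives the call at an FDR under 0.1. The changes of 12 genes lie to the right and were called, those of Samhd1 and Herc6 lie to the left and were called, and miR-342-3p replicate 3 (triangles) gave the smallest change for 10 of the 12 genes that rose.

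Interferon beta, encoded by Ifnb1, is the ligand that starts the response in macrophages. Ifnb1 had log2 values of 5.83, 5.54 and 5.60 on the miR-342-3p arrays, against 5.21, 5.40 and 5.17 on the control arrays. The groups did not overlap, but the lowest miR-342-3p array and the highest control array lay close together. Ifnb1 rose by 0.39 (SE 0.102, FDR 0.0621, limma), and without miR-342-3p replicate 1 it was not called (0.31, FDR 0.107). It was not called without control replicate 1, 2 or 3 either (FDR 0.232, 0.139 and 0.237). Its probe set lay at percentile 15.3 of mean level among all genes. The deposited values carry no detection call, so it is not known whether this probe set was above background. The receptor subunits were not called. Ifnar1 had values of 9.87, 10.16 and 10.12 in miR-342-3p-transfected cells, against 9.99, 10.05 and 10.02 in control cells, a log2 fold change of 0.03 (FDR 0.827). Ifnar2 had values of 11.03, 11.10 and 11.09 in miR-342-3p-transfected cells, against 11.08, 11.13 and 11.03 in control cells, a log2 fold change of -0.01 (FDR 0.949). The arrays of the groups were interleaved for both subunits.

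Of the transcription factors, 1 of 3 rose, against 4.14% of all genes tested. Irf7, the factor that amplifies the production of type I interferons, had values of 7.71, 7.53 and 7.36 on the miR-342-3p arrays, against 7.04, 7.01 and 7.15 on the control arrays. Each miR-342-3p array was above each control array, and Irf7 rose by 0.47 (SE 0.102, FDR 0.0396), which is 1.38-fold. Irf9, the DNA-binding part of ISGF3, had values of 9.15, 9.02 and 8.97 in miR-342-3p-transfected cells, against 8.92, 8.79 and 8.86 in control cells. Its groups were also separate, yet the log2 fold change of 0.19 did not pass the test (FDR 0.187). Stat2, the transactivating part of the same complex, had values of 7.83, 7.96 and 7.76 in miR-342-3p-transfected cells, against 7.78, 7.76 and 7.81 in control cells, with overlapping groups and a log2 fold change of 0.07 (FDR 0.573).

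The IFIT proteins bind viral RNA with foreign 5′ ends and block its translation. Of the 3 genes 2 rose, against 4.14% of all genes tested. Ifit1 had values of 7.83, 7.97 and 7.42 on the miR-342-3p arrays, against 6.61, 6.77 and 6.49 on the control arrays, with means of 7.74 ± 0.288 and 6.62 ± 0.143 (SD, n = 3 each). The lowest miR-342-3p array was well above the highest control array, and Ifit1 rose by 1.12 (SE 0.143, FDR 0.0102), which is 2.17-fold. Ifit3, which stabilizes IFIT complexes, had values of 6.69, 6.95 and 6.35 on the miR-342-3p arrays, against 6.01, 6.26 and 6.02 on the control arrays. Its groups were separate, although miR-342-3p replicate 3 was close to the highest control, and it rose by 0.57 (SE 0.146, FDR 0.0608). Ifit2, the other member of the family measured, had values of 6.59, 6.65 and 6.16 on the miR-342-3p arrays, against 6.04, 6.18 and 6.24 on the control arrays. Here miR-342-3p replicate 3 fell among the controls, and the log2 fold change of 0.31 did not pass the test (FDR 0.181). Without miR-342-3p replicate 3, Ifit2 had a log2 fold change of 0.46 (FDR 0.0193). The IFIT genes are near copies of each other in part, and how far their probes tell them apart was not tested.

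Rsad2 and Cmpk2 lie side by side in the genome and both rose. Rsad2 encodes viperin, which makes a chain-terminating nucleotide that stops viral polymerases. It had values of 8.17, 8.65 and 7.72 on the miR-342-3p arrays, against 7.13, 7.07 and 6.98 on the control arrays, with means of 8.18 ± 0.466 and 7.06 ± 0.0749 (SD, n = 3 each). The spread among the miR-342-3p arrays was wide and that among the controls narrow, and the groups did not overlap. Rsad2 rose by 1.12 (SE 0.196, FDR 0.0212), which is 2.18-fold. Cmpk2, a mitochondrial kinase that supplies the nucleotide on which viperin acts, had values of 7.65, 7.91 and 7.31 on the miR-342-3p arrays, against 6.84, 7.0 and 6.97 on the control arrays. The 3 miR-342-3p arrays kept the same order for both genes, with replicate 2 highest and replicate 3 lowest. Cmpk2 rose by 0.69 (SE 0.139, FDR 0.0315), which is 1.61-fold.

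The promoters of the 2 genes with the largest rise, Ifit1 and Rsad2, and of Oas3 and Stat2, which were not called, are shown to compare their ISRE letters. They were chosen among genes that hold a match. The bases are from RefSeq on GRCm38.p6 and read along the strand of the gene. For Ifit1 and Rsad2 they are the whole 250 bases before the start, and for Oas3 and Stat2 50 bases around the match. Capitals mark the ISRE core searched, which is GAAA, 2 further bases and GAAA, or its reverse complement, in which the blocks read TTTC. Distances are counted from the start used by the promoter table, which for some genes, Oas3 among them, lies inside the full span of the gene. Ifit1 holds 2 matches, which begin 104 and 85 bases before the start, and Rsad2 holds 1, 120 bases before it. Oas3 holds 1 match 75 bases before the start and Stat2 1 match 222 bases before it.
Ifit1 (chr19:34640639-34640888, plus strand): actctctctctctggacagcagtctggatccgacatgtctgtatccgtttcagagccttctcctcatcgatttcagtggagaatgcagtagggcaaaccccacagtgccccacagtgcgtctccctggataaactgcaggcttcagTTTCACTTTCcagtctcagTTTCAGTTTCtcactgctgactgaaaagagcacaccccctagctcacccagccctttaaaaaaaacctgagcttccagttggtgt
Rsad2 (chr12:26456453-26456702, minus strand): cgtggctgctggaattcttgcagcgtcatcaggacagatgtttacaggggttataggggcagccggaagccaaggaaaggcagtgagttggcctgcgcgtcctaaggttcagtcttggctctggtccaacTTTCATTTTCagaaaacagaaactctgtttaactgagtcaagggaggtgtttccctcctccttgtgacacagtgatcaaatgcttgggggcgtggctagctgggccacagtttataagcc
Oas3 (chr5:120777705-120777754, minus strand): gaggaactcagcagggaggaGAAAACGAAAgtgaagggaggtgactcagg
Stat2 (chr10:128270256-128270305, plus strand): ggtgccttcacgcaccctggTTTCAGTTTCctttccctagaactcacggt

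The promoter table, which spans 250 bases before to 50 bases after each start, had an entry for 32 of the 40 genes and for 29 of the 37 measured ones. The ISRE core was found on either strand in 10 of these 29 (34.5%), against 607 of 15614 tested genes with an entry (3.89%). Of the genes that rose, 3 of 10 with an entry held the core, namely Ifit1, Ifit3 and Rsad2, while Cmpk2 and Isg20, which rose more than Ifit3, did not. Of the genes not called, 7 of 17 with an entry held it, namely Bst2, Ifitm3, Oas1a, Oas3, Stat2, Trim21 and Trim30a. Neither Samhd1 nor Herc6 held it. The interferon gamma-type element TTCNNNGAA was found in 1 of the 10 genes that rose and in 8 of the 17 not called, against 8.99% of all tested genes with an entry. These shares describe letters in the windows and were not tested against the calls.

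The OAS family includes enzymes that make the short 2′-5′-linked adenylates that activate RNase L, which degrades viral and cellular RNA. Of its 6 measured genes, Oasl2 and Oasl1, which are OAS-like proteins, rose and the 4 others were not called. Of all genes tested, 4.14% were called higher. Oasl2 had values of 7.76, 7.79 and 7.53 on the miR-342-3p arrays, against 7.16, 7.06 and 7.15 on the control arrays, and rose by 0.57 (SE 0.0901, FDR 0.0173). Oasl1, a repressor of Irf7 translation in the mouse, had values of 8.27, 8.26 and 7.99 on the miR-342-3p arrays, against 7.65, 7.67 and 7.55 on the control arrays, and rose by 0.55 (SE 0.0959, FDR 0.0212). The groups were separate for both genes, with miR-342-3p replicates 1 and 2 at nearly one level and replicate 3 below them. Oas2 (0.28, FDR 0.131) and Oas1a (0.12, FDR 0.294) had separate groups without passing the test, although Oas2 was called higher among genes above the median level (FDR 0.0834) and with quantile normalization repeated (FDR 0.0987). Oas1b (0.19, FDR 0.214) and Oas3 (0.11, FDR 0.411) did not pass it either. Oas1a belongs to a set of near-identical Oas1 copies, and its value may include their signal.

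The MX GTPases, which trap viral nucleocapsids, were not called. The probe sets of Mx2 and Mx1 gave low values, at percentiles 16.6 and 5.6 of mean level among all genes. Without a detection call it is not known whether these probe sets were above background. Mx2 had values of 5.81, 5.52 and 5.62 in miR-342-3p-transfected cells, against 5.51, 5.54 and 5.26 in control cells (log2 fold change 0.21, FDR 0.242), and Mx1 lay at 4.32 to 4.49 in miR-342-3p-transfected cells, against 4.40 to 4.46 in control cells (log2 fold change -0.03, FDR 0.798).

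The ISG15 system attaches the ubiquitin-like protein ISG15 to newly made proteins and removes it again. Its measured genes moved in different directions. Usp18 encodes the protease that removes ISG15 and also binds IFNAR2 to dampen the signal. It had values of 8.99, 9.0 and 8.45 on the miR-342-3p arrays, against 7.72, 7.75 and 7.77 on the control arrays, with means of 8.82 ± 0.314 and 7.75 ± 0.0239 (SD, n = 3 each). The controls were almost equal and all miR-342-3p arrays lay above them, and Usp18 rose by 1.07 (SE 0.14, FDR 0.0109), which is 2.1-fold. Herc6, the ligase that attaches ISG15 in the mouse, had values of 6.90, 6.87 and 7.27 on the miR-342-3p arrays, against 7.57, 7.37 and 7.32 on the control arrays. Its groups were separate by a narrow gap, and it fell by 0.41 (SE 0.121, FDR 0.0871) to 0.754 of the control level. The call of Herc6 was lost without miR-342-3p replicate 1 or 2, without any of the control arrays and with array weights (log2 fold change -0.28, FDR 0.21). Trim25, a ligase that also acts on the RNA sensor RIG-I, had overlapping groups and an FDR of 0.987.

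**Figure D2:**
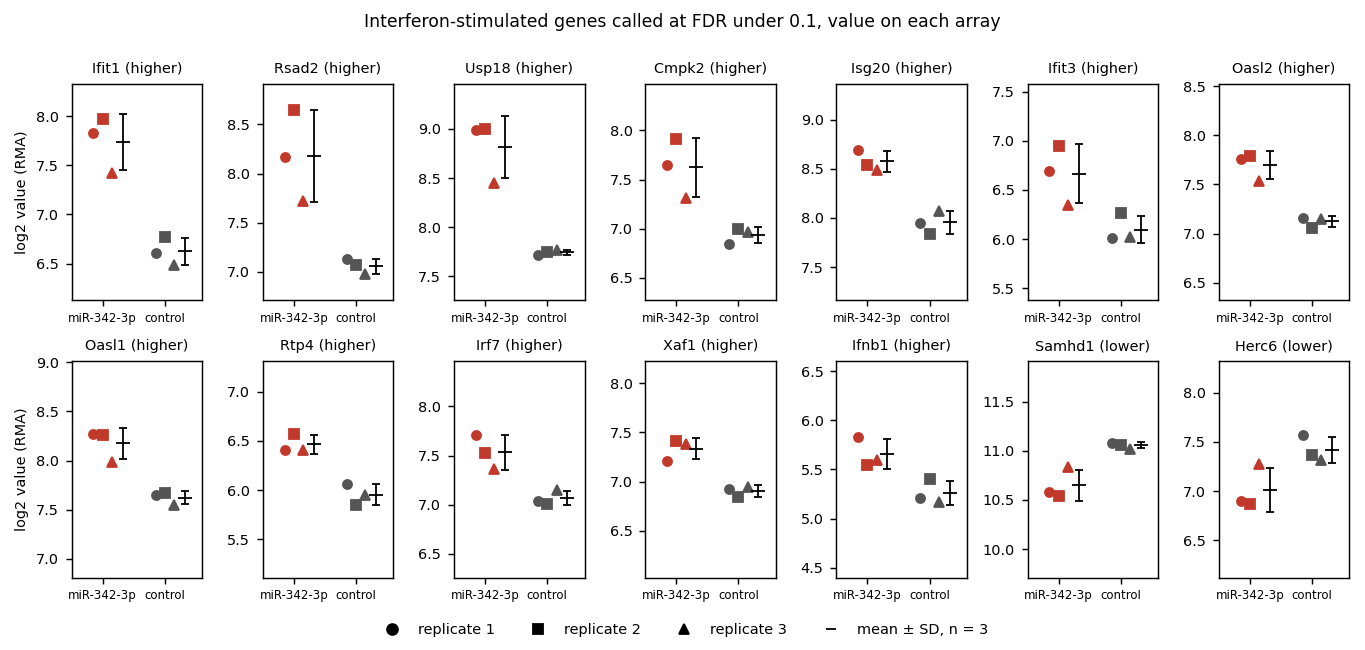
Log2 values of the 14 called genes on each array, with 3 miR-342-3p arrays on the left of each panel and 3 control arrays on the right, and the mean ± SD of each group as a bar (n = 3). All panels span the same number of log2 units. The groups are separate in every panel, widest for Ifit1, Rsad2 and Usp18, and the control arrays lie closer together than the miR-342-3p arrays in most panels.

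Of the 3 nucleases and enzymes of RNA editing and nucleotide pools, 1 rose and 1 fell. Of all genes tested, 4.14% were called higher and 7.42% lower. Isg20, an exonuclease that degrades viral RNA, had values of 8.69, 8.54 and 8.49 on the miR-342-3p arrays, against 7.95, 7.84 and 8.07 on the control arrays. The 3 miR-342-3p arrays lay close together and above all controls, and Isg20 rose by 0.62 (SE 0.0905, FDR 0.0148), which is 1.53-fold. Samhd1, which empties the pool of deoxynucleotides and so restricts retroviruses in macrophages, had values of 10.58, 10.54 and 10.83 on the miR-342-3p arrays, against 11.08, 11.06 and 11.02 on the control arrays. The controls were again nearly equal and all miR-342-3p arrays were below them, and Samhd1 fell by 0.40 (SE 0.0922, FDR 0.045) to 0.756 of the control level. Adar, which edits adenosine in double-stranded RNA, had separate groups at a log2 fold change of 0.17 (FDR 0.272).

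Rtp4 and Xaf1 rose as well. Rtp4, which binds RNA of flaviviruses and hinders its copying, had values of 6.41, 6.57 and 6.41 on the miR-342-3p arrays, against 6.06, 5.85 and 5.95 on the control arrays, and rose by 0.51 (SE 0.0877, FDR 0.0207). Xaf1, a pro-apoptotic antagonist of the inhibitor XIAP, had values of 7.21, 7.41 and 7.38 on the miR-342-3p arrays, against 6.93, 6.84 and 6.95 on the control arrays, and rose by 0.43 (SE 0.0844, FDR 0.0299). For Xaf1 the lowest miR-342-3p array was replicate 1 and not replicate 3. The secreted glycoprotein gene Lgals3bp (0.06, FDR 0.599) and Ifi35 (FDR 0.987) were not called.

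None of the membrane, PARP and TRIM genes was called, 8 genes in all. Of all genes tested, 4.14% were called higher and 7.42% lower. Ifitm3, which blocks the fusion of viruses in endosomes, had a log2 fold change of -0.07 (FDR 0.534). Bst2, or tetherin, which holds budding virus at the surface, had a log2 fold change of 0.03 (FDR 0.776). Parp9 and Dtx3l form a complex that modifies histones and viral proteins. Parp9 had values of 7.89, 7.84 and 8.14 in miR-342-3p-transfected cells, against 8.22, 8.15 and 8.21 in control cells, with separate groups and a log2 fold change of -0.24 (FDR 0.158), while Dtx3l had a log2 fold change of 0.07 (FDR 0.523). Without miR-342-3p replicate 3, Parp9 was called lower (-0.33, FDR 0.0347). Parp12, a mono-ADP-ribosyltransferase, had separate groups and a log2 fold change of 0.15 (FDR 0.22), and it was called higher with quantile normalization repeated (0.22, FDR 0.0747) and with cyclic loess normalization (0.21, FDR 0.0693). Parp14 had values of 7.35, 6.74 and 7.39 in miR-342-3p-transfected cells, against 7.18, 7.10 and 7.01 in control cells, so that miR-342-3p replicate 2 alone lay below the controls. Without that array Parp14 (0.27, FDR 0.0867) and Trim30a (0.24, FDR 0.0829), a mouse TRIM protein that limits Toll-like receptor signals, were called higher, against 0.06 (FDR 0.816) and 0.10 (FDR 0.563) with it. Trim21, a cytosolic antibody receptor, had a log2 fold change of 0.11 (FDR 0.484). Over all 23 genes not called, log2 fold changes ran from -0.24 to 0.31.

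The size of the rise differed between the arrays of miR-342-3p-transfected cells. Taken against the mean of the controls, the median change of the 12 genes that rose was 0.65, 0.65 and 0.43 in replicates 1, 2 and 3. Replicate 3 had the smallest change for 10 of the 12 genes and the largest for none. Among all genes called higher, the smallest change was in replicate 3 for 71.3%, so this order is not particular to the interferon-stimulated genes. The miR-342-3p arrays correlated with each other at 0.9909 to 0.9926 over all genes, and the control arrays at 0.9982 to 0.9986. Replicate 3 correlated with the controls at 0.9958 to 0.9961.

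More calls were lost without a control array than without a miR-342-3p array, among these genes and over all genes. The miR-342-3p arrays were the more variable, with fitted weights of 0.235, 0.3535 and 0.9254, against 1.692, 2.286 and 3.363 for the controls. The main fit gives both groups a common spread. Without control replicates 1, 2 and 3, Irf7 had log2 fold changes of 0.45, 0.44 and 0.51 (0.47 with all arrays), and Herc6 of -0.33, -0.43 and -0.46 (-0.41). With a single miR-342-3p array left out, 11 to 14 of the 14 calls were kept, the losses being Herc6, Ifit3 and Ifnb1 without replicate 1 and Herc6 without replicate 2. With control replicate 1 left out 6 were kept, with control replicate 2 left out 3 (Ifit1, Isg20 and Usp18), and with control replicate 3 left out 4 (the same genes and Oasl2). Rsad2 then had an FDR of 0.103 and 0.101 without control replicates 2 and 3. No called gene changed its direction in any alternative.

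**Figure D3:**
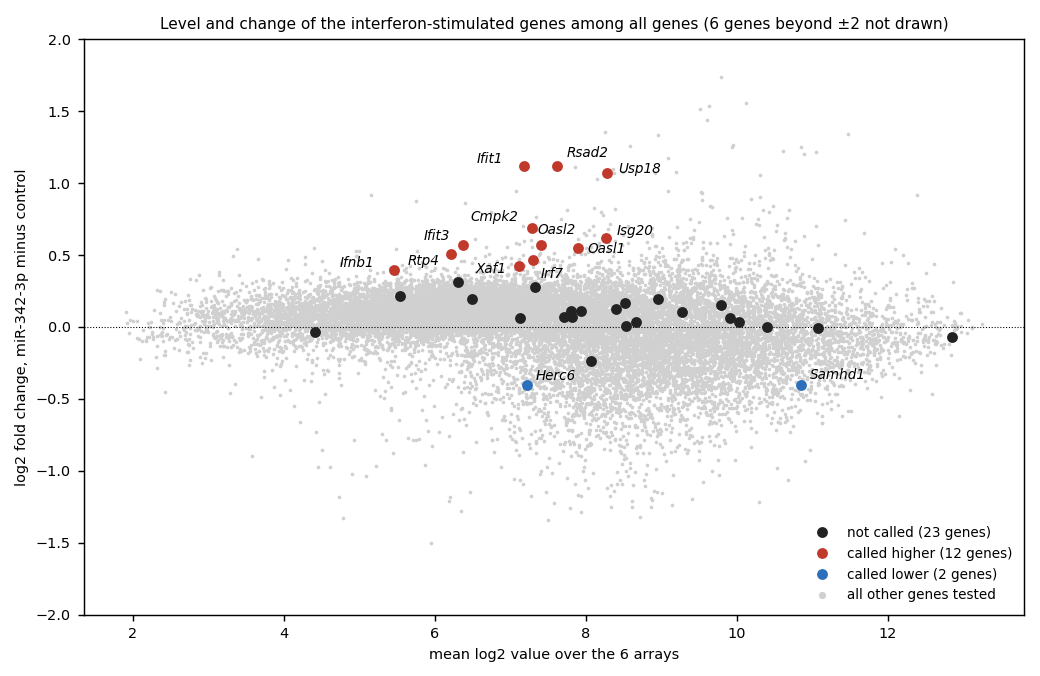
Log2 fold change, miR-342-3p minus control, against the mean log2 value over the 6 arrays for all genes tested, with the interferon-stimulated genes in colour or black. The genes that rose lie in the lower and middle range of levels. Of the 9 in the highest of 4 equal level classes, none was called higher and 1 was called lower. Of all genes in that class, 7.4% were called higher and 15.2% lower.

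Genes of low level shifted upward as a whole. When all genes were divided by mean level into 4 classes of equal size, the median log2 fold change was 0.09, 0.12, 0.03 and -0.06 from the lowest to the highest class, and the share called higher was 1.79%, 2.39%, 4.98% and 7.4%. The interferon-stimulated genes called higher numbered 1 of 3, 3 of 6, 8 of 19 and 0 of 9 in these classes. The upward shift of the lower classes was mainly in miR-342-3p replicate 1, at 0.20 and 0.26. With cyclic loess, a normalization that removes such level-dependent shifts and was chosen after seeing the data, the medians of the classes were 0.04, 0.04, 0.02 and -0.01. All 14 calls were then kept, with Ifnb1 at 0.33 (FDR 0.0393) and Ifit3 at 0.48 (FDR 0.0965).

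The other genes of the pathway were taken from lists. For comparison, 4.14% of all genes tested were called higher and 7.42% lower. Of 14 measured type I interferon ligand genes, Ifnb1 rose and none fell, and the 13 others had log2 fold changes of -0.19 to 0.25. Of 14 measured receptor and JAK-STAT genes, 1 rose and 3 fell. This balance turned with the scaling, at 0 higher and 2 lower with centred arrays and 3 higher and 2 lower with quantile normalization repeated or cyclic loess. Socs1, which inhibits JAK kinases, rose by 0.29 (SE 0.0885, FDR 0.0927). Ptpn2, a phosphatase that acts on JAK kinases, had values of 8.15, 8.43 and 8.74 in miR-342-3p-transfected cells, against 9.15, 9.13 and 9.02 in control cells, and fell by 0.66 (FDR 0.0326). All miR-342-3p arrays were below all controls for Ptpn2, but it was not called without control replicate 1, 2 or 3 (FDR 0.147, 0.141 and 0.113). Jak1, the receptor kinase, fell by 0.31 (FDR 0.0673), and Ptpn6, a phosphatase of blood cells, fell by 0.24 (FDR 0.0942). Socs1 was not called when the arrays were centred on their medians (FDR 0.18), and Ptpn6 was not called under any of the 3 other scalings tried (FDR 0.101 to 0.129). With array weights the calls of Jak1 (FDR 0.107), Socs1 (FDR 0.136) and Ptpn6 (FDR 0.122) were lost.

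Of 8 measured interferon regulatory factors, Irf7 rose and none fell. Irf1, which is induced by both interferon types, had values of 8.04, 8.47 and 7.97 in miR-342-3p-transfected cells, against 7.81, 7.89 and 7.86 in control cells. Its groups were separate, but the log2 fold change of 0.31 did not pass the test (FDR 0.172). Irf3, which is switched on by phosphorylation downstream of RNA and DNA sensors, had a log2 fold change of 0.07 (FDR 0.588). Of 18 measured genes of RNA and DNA sensing, 1 rose and 1 fell, against 4.14% called higher and 7.42% called lower of all genes tested. Ddx58, which encodes the RNA sensor RIG-I, rose by 0.26 (FDR 0.0787), and this call was lost when the arrays were centred (FDR 0.117). Cgas, the sensor of cytosolic DNA, fell by 0.47 (FDR 0.0463). It was not called without control replicate 1, 2 or 3 (FDR 0.197, 0.171 and 0.145) or without miR-342-3p replicate 1 (FDR 0.101).

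Of 41 measured genes on a list of further interferon-stimulated genes, 8 rose and 2 fell, and the median log2 fold change was 0.11. Of all genes tested, 4.14% were called higher and 7.42% lower, with a median of 0.069. Cxcl10, a chemokine for T cells, had values of 10.65, 10.66 and 9.90 on the miR-342-3p arrays, against 8.99, 8.80 and 8.80 on the control arrays. Its groups were far apart, with miR-342-3p replicate 3 again the lowest of its group, and it rose by 1.54 (FDR 0.00876). Ccl5, another chemokine, rose by 0.58 (FDR 0.0939), Gbp3, an interferon-induced GTPase, by 0.38 (FDR 0.0332) and Cd274, which encodes PD-L1, by 0.38 (FDR 0.0912). The high-affinity IgG receptor gene Fcgr1 fell by 0.35 (FDR 0.0355) and Slfn2 by 0.28 (FDR 0.0629). With the arrays centred on their medians 5 of the 41 were called higher and 2 lower, and the calls of Ccl5 and Cd274 were among those lost. Cd274 was not called under any of the 3 other scalings (FDR 0.114 to 0.163). Slfn2 was not called with quantile normalization repeated (-0.22, FDR 0.111), and array weights lost Ccl5 (FDR 0.131) and Cd274 (FDR 0.123). Of the called genes named from the pathway lists, only Cxcl10 stayed called whichever single array was left out (highest FDR 0.0551). The others lost their calls without each control array, Gbp3 at FDRs of 0.176, 0.139 and 0.137 and Fcgr1 at 0.163, 0.168 and 0.18.

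**Figure D4:**
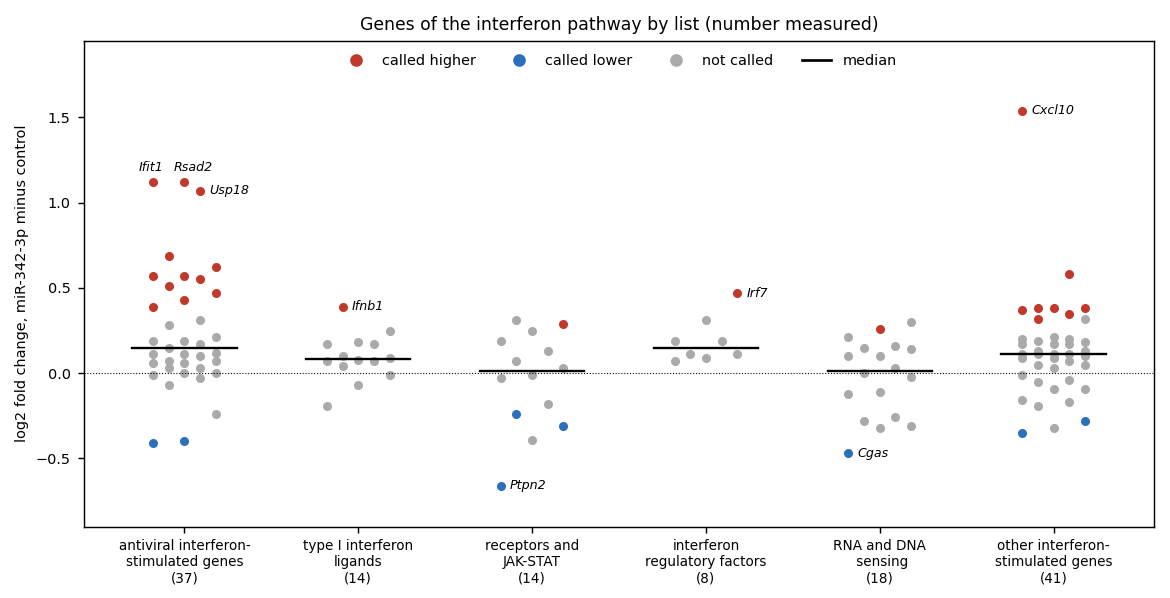
Log2 fold change, miR-342-3p minus control, of each measured gene of the interferon-stimulated genes and of 5 lists of the same pathway, with the call at an FDR under 0.1 in colour and the median of each list as a bar. The largest rises are those of Cxcl10, Ifit1, Rsad2 and Usp18, and in the ligand list Ifnb1 is the gene called.

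Markers of cell types were read beside these changes, with 4.14% of all genes tested called higher and 7.42% called lower. Of 9 measured macrophage markers, Spi1 rose by 0.35, and Itgam and Fcgr1 each fell by 0.35. Their summed log2 level was 95 to 96.7 in miR-342-3p-transfected cells and 96.7 to 96.9 in control cells. None of 5 lymphocyte markers was called (summed log2 level 27.8 to 29.6 and 27.8 to 28.2), nor any of 4 markers of plasmacytoid dendritic cells, which secrete much type I interferon (30.3 to 30.9 and 30.2 to 30.4). Of 5 fibroblast markers, Pdgfra rose by 0.49 (36.0 to 37.6 and 35.3 to 35.7). The part of these markers in the changes of the interferon-stimulated genes was not tested.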

How the data were processed

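RNA of RAW264.7 cells that had received either the miR-342-3p or the control mimic was hybridized to 3 Affymetrix arrays per group. The authors deposited RMA log2 values, and the sources used here do not give the RMA version. The platform annotation assigned the 35556 probe sets, with 21789 to 1 gene, 1621 to several and 12146 unnamed, and 21698 matched RefSeq (GRCm38.p6) by Entrez ID without a changed symbol. The probe set of largest interquartile range over the 6 arrays stood for each gene, giving 19938 genes. The number of arrays limits the precision. Array medians differed by at most 0.151, and no pair of arrays was identical.

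limma version 3.58.1 (lmFit and eBayes, R version 4.3.3) was fitted over all genes, with Benjamini-Hochberg adjustment. The study also names limma, the interquartile range rule and Benjamini-Hochberg FDRs for these arrays, and used an FDR under 0.1. It reported more genes in each direction at that threshold than were called here, and the reason was not tested. The steps were tested on simulated data in which both groups had the same spread. The real groups differed in spread, so the simulation does not cover that situation. The genes, roles and lists were chosen with earlier results of these data known. The text names every listed gene, with array values for called genes, Ifnb1, the receptor subunits, Stat2, Irf9 and Irf7 and for some others chosen after their values were seen. From each pathway list it names up to 4 called genes per direction, and Irf1 and Irf3. Alternatives were a replicate block, each array left out, another probe set choice, a filter on level, centring and repeated quantile normalization. Others were a trended robust prior, array weights, stricter FDR, Student's t-test and, chosen after seeing the data, cyclic loess. Promoters were searched for exact letters on both strands. Python 3.11.15 with matplotlib 3.10.9 drew the figures. Not every gene of the pathway lists is reported here.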

Additional observations from a re-analysis of the deposited data

How the results depend on the processing

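With 3 arrays per group, more calls were lost without a control array than without a miR-342-3p array. Leaving out 1 array at a time gave 3 to 14 genes higher and 0 to 3 lower among the interferon-stimulated genes, and 88 to 2104 higher and 102 to 2422 lower among all genes. Array weights, an FDR under 0.05 and Student's t-test at an unadjusted p under 0.05 each called 1 of the interferon-stimulated genes lower. Student's t-test, which the study names for comparisons of 2 groups while it used limma for its arrays, shares no spread between genes. It called 15 of the interferon-stimulated genes higher at an unadjusted p under 0.05. After Benjamini-Hochberg adjustment it called 0 in either direction, against 26 higher and 22 lower of all genes. Over all genes, 408 were higher with centred arrays, 1817 with quantile normalization repeated, 1342 with cyclic loess, 312 at an FDR under 0.05 (661 lower) and 2080 by the unadjusted t-test, against 825 (1479 lower) with the settings used in the text. Higher genes were thus 22.8%, 56.1% and 44.8% of the calls under these 3 scalings, against 35.8%, and 85.7%, 87.5% and 86.7% of the calls among the interferon-stimulated genes, against 85.7%. Deviations of same-numbered arrays from their group means correlated at -0.308, -0.163 and -0.106. With 3 arrays per group this cannot show whether the numbers pair the samples, so the fit is also given with a replicate block. With the replicate block the same 12 genes were higher and 2 lower, and 550 higher and 1445 lower of all genes. Among the named pathway genes, the block lost the calls of Jak1 (FDR 0.116), Slfn2 (FDR 0.14), Socs1 (FDR 0.135), Ptpn6 (FDR 0.213) and Ddx58 (FDR 0.183).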
